A study of Mus musculus with 4 samples.

Results

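The genes described here encode the nuclear subunits of the oxidative phosphorylation machinery. They were the genes whose platform annotation gives a single symbol that matches a fixed pattern of names: Nduf followed by a, b, c, s or v and a digit (complex I), Sdha to Sdhd (complex II), names starting with Uqcr (complex III), Cox4, Cox5, Cox6b, Cox6c, Cox7 and Cox8 (complex IV), and names starting with Atp5 (complex V). The pattern took 79 of 18193 genes, 35 in complex I, 4 in complex II, 8 in complex III, 15 in complex IV and 17 in complex V. The pattern reads names and no measured values, but it was chosen with earlier results of these data known. Where a gene had several probe sets the brightest was used, by its mean over all arrays.

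RNA came from 4 tumours of the mouse melanoma line iNRAS-475. Doxycycline switches on its NRAS, a small GTPase upstream of the RAF, MEK and ERK kinases. The cells grew in the dermis of nude mice, which still have innate immune cells but lack T cells, and every mouse drank water with 2 mg/ml doxycycline. After 6 weeks the tumours measured 200 to 500 mm3, and the drug was then kept for the control tumour (on) and taken away for 24, 48 or 72 h from the others (off). A piece of about 50 mg, trimmed of skin, went to 1 Affymetrix array per group, so no group has a replicate, no spread within a group can be given, and no p-value is printed. The sources used here do not say whether the line is a single clone, nor the mice's age.

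The respiratory chain sits in the inner mitochondrial membrane. Complexes I and II take electrons from NADH and succinate and pass them through coenzyme Q to complex III, which hands them by cytochrome c to complex IV and so to oxygen. Complexes I, III and IV pump protons, and complex V, the ATP synthase, lets them flow back to make ATP. Most subunits are encoded in the nucleus, among them every gene counted here, and a few core ones in mitochondrial DNA. Melanoma cells can draw on oxidative phosphorylation as well as glycolysis, and MITF, the master regulator of pigment cells, is known to raise it through the coactivator PGC-1alpha, encoded by Ppargc1a.

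Values are intensities on a linear scale, and a difference is that of log2(intensity + 32) between 2 arrays, where 0.5 is 1.41-fold for a bright gene. A gene passed a level filter if its mean intensity reached 24.9, the 40th percentile of all probe sets. It was passed by 13522 genes, and 75 of the 79 subunit genes were among them. Those under it were Cox7a1, Cox7b2, Cox7c and Ndufb4, with intensities from 9.79 to 17.0, and nothing is read from their differences. The subunit genes are bright as a class: 66 of the 79 reached an intensity of 258, which is the 90th percentile over probe sets.

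The mouse Nras probe set read 163, 256, 163 and 163 on the control, 24, 48 and 72 h arrays, and the sources used here do not say whether it reads the inducible NRAS. Dusp6, a phosphatase that ERK signalling induces, read 1706, 1338, 334 and 156 in that order, lower with each time off the drug. Among melanocyte markers Sox10 was bright on every array, from 3613 to 4681, while Tyr, Tyrp1 and Mlana were under the filter. Of the others past it, Pmel lay at 1.14, Mitf at 0.84, Dct at −0.21 and Mc1r at −0.24 at 72 h, in both directions. Array medians ran from 33.3 to 34.0.

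At 24 h off doxycycline the subunit genes lay close to the control, and at 48 and 72 h most of them lay a little below it. Over the 75 genes the median difference came to 0.04, then −0.14, then −0.16 for the 24, 48 and 72 h arrays, and over all genes that passed the filter to 0.00 each time. At 24 h 28 of the 75 were below the control, or 37.3%, against 43.0% of all genes. At 48 h 56 of 75 were below it, or 74.7%, against 45.5%. At 72 h 61 of 75 were below it, or 81.3%, against 43.7%. Equal values were counted apart, 3 of them at 48 h and 2 at 72 h. The shift was thus broad and small. The 3 comparisons share the control array, and an error in that array would enter each of them. In bulk tumour RNA, fewer cells of a type and less RNA per cell cannot be told apart.

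The subunit genes are bright, so bright genes are the closer comparison. Of the 2946 genes at or above the 90th percentile, 54.0% were below the control at 48 h and 51.3% at 72 h, while 50 and 55 of the 66 subunit genes in that range were. The medians there were −0.15 at 48 h and −0.16 at 72 h for the subunit genes, against −0.03 and −0.02 for all such genes.

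Few subunit genes reached a difference of 0.5. At 24 h none was lower by that much (0.932% of all genes were) and Ndufa12 alone was higher (2.17% of all genes). At 48 h 3 were lower (4.75% of all genes, 12.0% of the bright ones) and none higher (4.51%). At 72 h 3 were lower (5.52% of all genes, 15.1% of the bright ones) and none higher (8.32%). These shares are at or under the background, so the counts of large differences do not set the subunit genes apart. The first and the third quartile of their differences at 72 h were −0.31 and −0.02. Those quartiles were −0.29 and 0.24 for the bright genes and −0.12 and 0.15 for all genes. The most extreme subunit genes lay at −0.81 and 0.31.

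**Figure D1:**
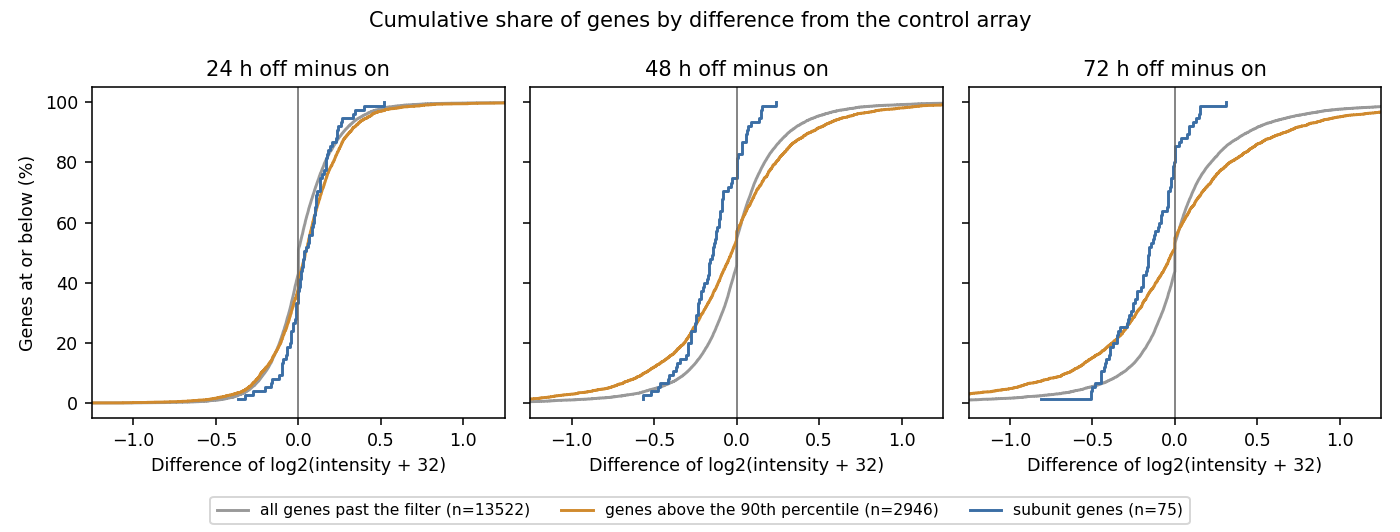
Cumulative share of genes (y axis, percent) at or below each difference of log2(intensity + 32) from the control array (x axis), for the 75 subunit genes, the 2946 genes at or above the 90th percentile and all 13522 genes past the filter, with 1 array per time. The most extreme genes lie outside the x axis. The curve of the subunit genes runs with the others at 24 h and is moved left at 48 and 72 h, with a median of −0.16 at 72 h, and it ends at 0.31 where the others run on to higher differences.

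The same genes were also compared between the off arrays, which leaves the control out. From 24 to 48 h the median difference was −0.20, with 62 of 75 below (44.3% of all genes) and 7 lower by at least 0.5 (5.66%). From 48 to 72 h it was −0.02, with 42 below (39.4% of all genes), none lower by 0.5 (1.48%) and 2, Ndufa3 and Cox8b, higher by it (3.55%). On the deposited scale, most of the drop in level between the 24 h and the later arrays was thus already present at 48 h. The comparisons with 24 h share that single array. From 24 to 72 h the median was −0.20, with 66 below (40.8% of all genes) and 5 lower by at least 0.5 (6.71%). Only Uqcrq was lower by at least 1, or 2-fold (1.85% of all genes). Of the bright genes, 59.4% were below from 24 to 48 h (median −0.08) and 55.9% from 24 to 72 h (median −0.06). In these steps 404 and 512 of the 2946 bright genes were lower by at least 0.5, a larger share than of the subunit genes. Of the 75 genes, 43 were highest on the 24 h array (22.1% of all genes), 27 were lowest on the 48 h array (19.5%) and 41 on the 72 h array (21.7%). On the control array 19 were highest (23.9% of all genes) and 2 lowest (27.3%).

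The arrays differ in the spread of bright values, and the size of these differences depends on how that is handled. With quantile normalization, which gives all arrays one distribution, the median at 48 h was −0.09 with 51 of 75 below (68.0%, against 58.0% of all genes). At 72 h it was −0.11 with 53 below (70.7%, against 57.7%). From 24 to 72 h it was −0.09 with 53 below (against 49.1%). From 24 to 48 h it was −0.074 with 48 below (against 50.1%). From 48 to 72 h it was −0.045 with 47 below (against 45.0%), so these steps were nearer in size on that scale. At 24 h the median changed sign to −0.02 with 40 below (53.3%, against 58.2%). Of the bright genes 48.1% were below the control at 48 h and 51.9% at 72 h on that scale. The excess over all genes at 48 and 72 h was thus smaller there, and the median at 24 h was no longer above 0.

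The 79 genes had 160 probe sets. Besides the brightest, 68 probe sets of 42 of the genes were above the filter, and these were not used for the values above. For the 24, 48 and 72 h arrays their medians were 0.07, −0.14 and −0.11, with 20, 52 and 47 of the 68 below the control. At 72 h 49 of them had the sign of their gene's brightest probe set. They come from the same RNA and array, so they speak to the probes and not to the tumours.

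**Figure D2:**
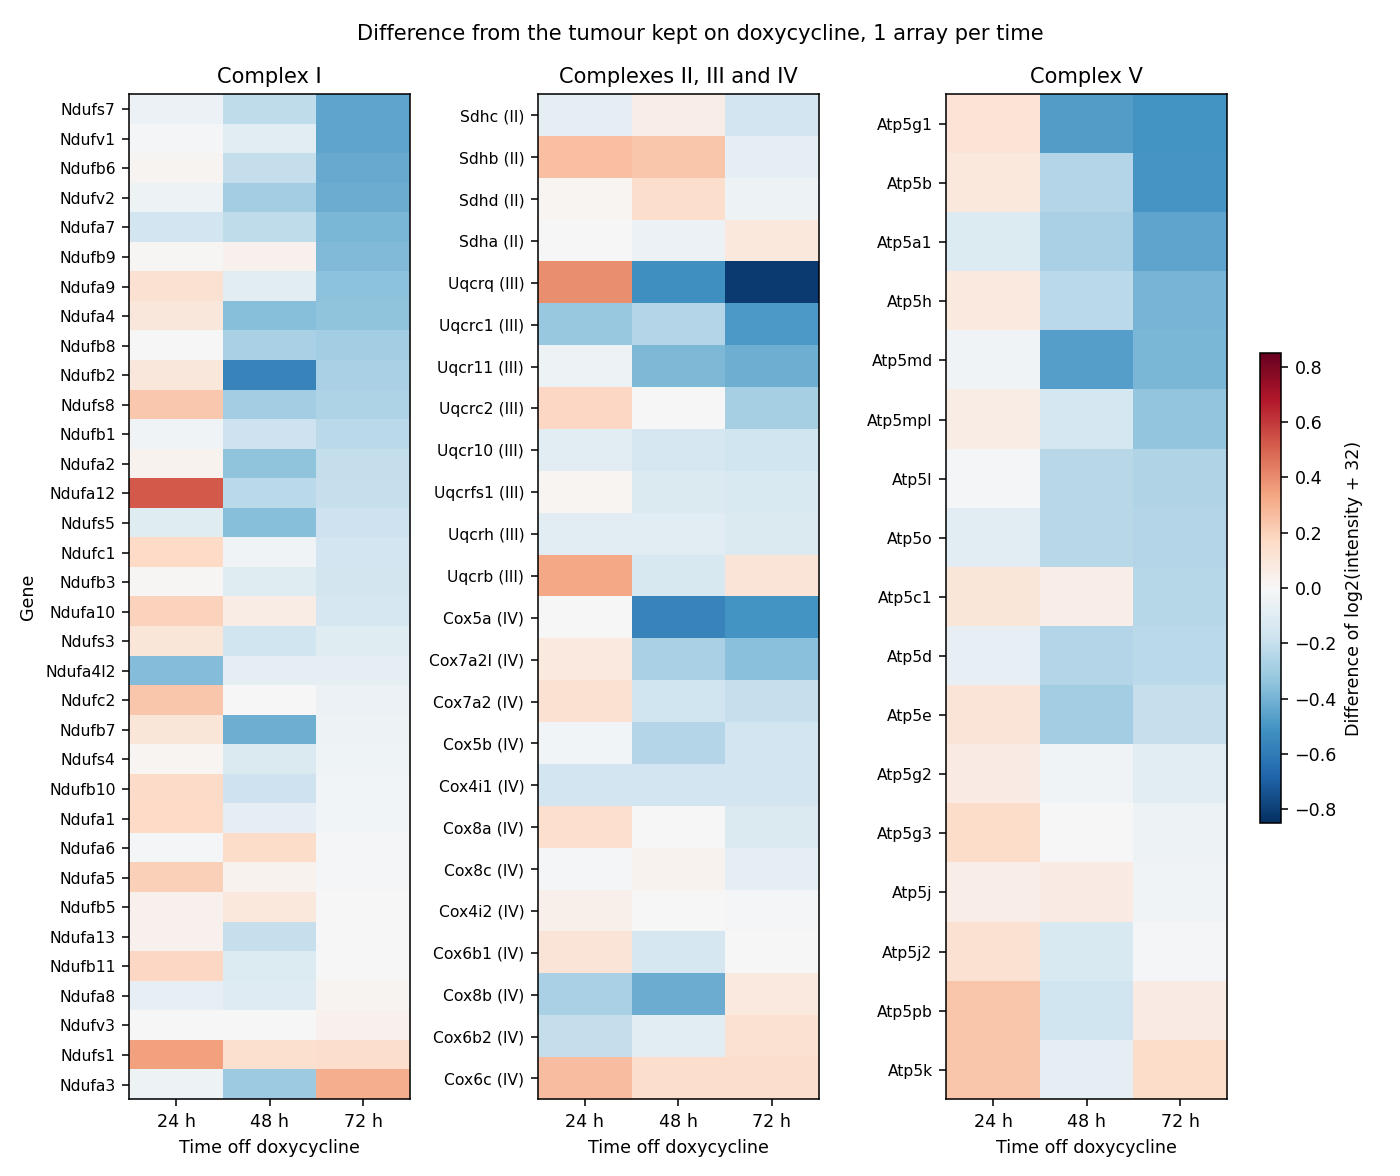
Difference of log2(intensity + 32) from the control tumour (colour, blue for lower and red for higher, on the scale of the bar) for each of the 75 subunit genes (rows, sorted by the 72 h value within each complex) at 24, 48 and 72 h off doxycycline (columns), 1 array per time. Blue cells are the majority at 48 and 72 h in complexes I, III, IV and V, with 61 of 75 genes below the control at 72 h, while 24 h holds both colours, with 28 of 75 below.

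The complexes lay at different distances from the control. Complex V, which makes the ATP, had medians of −0.23 at 48 h and −0.24 at 72 h. Complex V genes were below the control in 14 of 17 cases at 48 h and 15 of 17 at 72 h, and all 17 were below the 24 h array at 72 h. Complex III had medians of −0.14 and −0.23, with 7 of 8 genes below at each time. Complex I had −0.14 and −0.15, with 26 and 28 of 34 below. Complex IV had −0.15 and −0.10, with 8 of 12 below at each time. Without the forms known from particular tissues (Cox4i2, Cox6b2, Cox8b and Cox8c) its median at 72 h was −0.16. Complex II, which also belongs to the citric acid cycle, had 0.10 at 48 h, with 1 of 4 below, and −0.06 at 72 h, with 3 of 4 below. Differences between complexes were not tested, since members of a complex are not replicates. With quantile normalization the complex V medians were −0.12 and −0.18 and those of complex II 0.18 and −0.01.

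**Figure D3:**
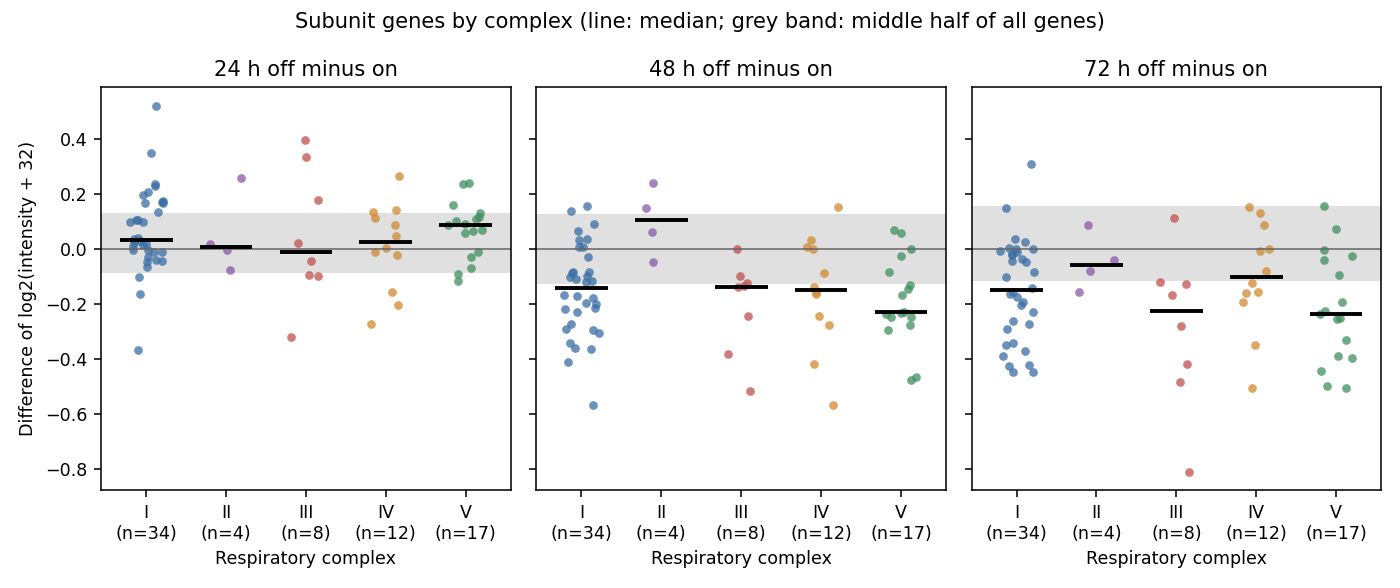
Difference of log2(intensity + 32) from the control array (y axis) for each subunit gene (points) by complex (x axis), at 24, 48 and 72 h; black lines are medians over the genes, and the grey band runs from the first to the third quartile of all 13522 genes. The medians of complexes I, III, IV and V lie below 0 at 48 and 72 h, from −0.10 to −0.24, and that of complex II lies at 0.10 at 48 h.

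In complex V the catalytic F1 head was measured through all 5 of its subunits, and all 5 were below the control at 72 h, with a median of −0.24. Atp5b, the beta subunit that carries the catalytic sites, read 2113, 2250, 1773 and 1486 on the control, 24, 48 and 72 h arrays, the order used for all values that follow. It was highest at 24 h and lowest at 72 h, with a difference of −0.50 from the control that falls just short of the 0.5 used for counting. Atp5a1, the alpha subunit that alternates with beta in the head, read 2193, 2019, 1805 and 1602. On this probe set Atp5a1 was lower on each array than on the one before, with a difference of −0.45 at 72 h. Another bright probe set of it read 859, 924, 599 and 718 (−0.25), and a dim one lay at −0.06. Both were above the control at 24 h and lowest at 48 h, so the order of the arrays differs between probe sets.

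The membrane rotor of complex V is a ring of identical c subunits, which the mouse encodes in a group of genes whose mature proteins are the same. Atp5g1 read 582, 633, 409 and 400, a difference of −0.51 at 72 h. Atp5g2 read 1091, 1144, 1069 and 1019, a difference of −0.09. Atp5g3 read 2516, 2811, 2516 and 2445, a difference of −0.04. All of these genes were highest at 24 h, and of them only Atp5g1 was lower by 0.5 at 72 h. The 10 genes of the membrane part and stalks had a median of −0.07 at 72 h, with 8 below. The highest of complex V at 72 h were Atp5k, the e subunit that helps the enzyme form dimers, with 972, 1153, 914 and 1086 (0.15), and Atp5pb, the b subunit of the outer stalk, with 568, 674, 502 and 599 (0.07). The other Atp5pb probe set read 586, 568, 492 and 526 (−0.15), so the direction of this gene at 72 h differs between probe sets. Atp5j2, the f subunit, differed by −0.01. These genes were at their lowest at 48 h and not at 72 h.

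**Figure D4:**
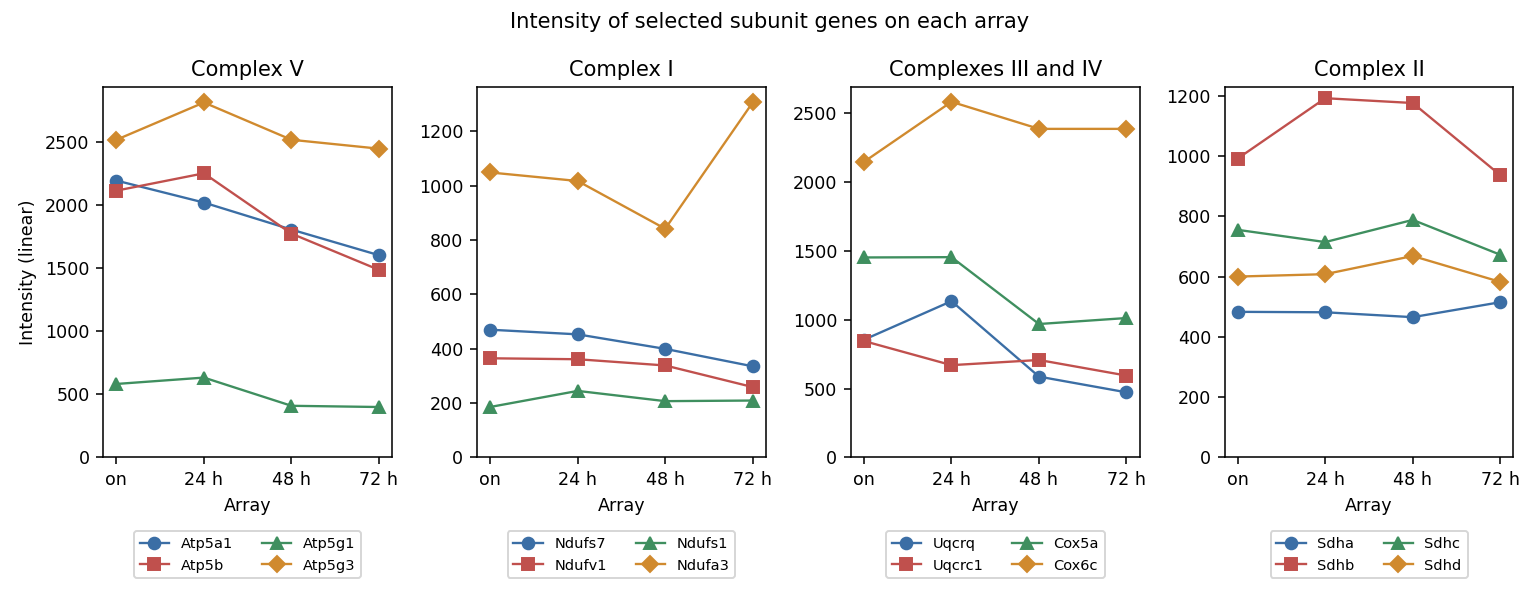
Intensity on a linear scale starting at 0 (y axis) of 16 subunit genes on the control (on), 24, 48 and 72 h arrays (x axis), 1 point per array; heights of different genes are not comparable, since probe sets differ in brightness. Only the brightest probe set of each gene is drawn. On it Atp5a1, Atp5b and Atp5g1 are lowest at 72 h, Uqcrq goes from 1135 at 24 h to 473 at 72 h, and Ndufa3 is highest at 72 h with 1306.

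Complex I is the largest of the complexes, with core subunits that carry the flavin and iron-sulphur centres and a shell of supernumerary ones. The 6 core subunits measured had a median of −0.19 at 48 h and −0.34 at 72 h, with 5 of 6 below at each time. The 28 supernumerary ones had −0.12 and −0.11, with 21 and 23 below. These medians take the brightest probe set of each gene. At 72 h other probe sets lay nearer to the control for Ndufs7 (−0.11) and Ndufv1 (−0.16 and −0.10). For Ndufs8 they lay on both sides of the brightest. The core median thus depends on the probe set, and how these medians compare on other probe sets was not tested.

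Ndufv1, which binds NADH and the flavin, read 365, 361, 338 and 259 (−0.45 at 72 h). It was lowest on the 72 h array, but its other probe sets lay at −0.17 and −0.08 at 48 h and at −0.16 and −0.10 at 72 h, so the size at 72 h rests on 1 probe set. Ndufv2, its partner in the NADH-binding module, read 780, 755, 629 and 574 (−0.42). Ndufs7, which holds the last iron-sulphur cluster before coenzyme Q, read 470, 453, 399 and 335 (−0.45), but its other probe set read 219, 237, 195 and 201 (−0.11). On their brightest probe sets both genes were lower at each later time.

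Ndufs8, another iron-sulphur subunit, read 571, 675, 460 and 470 (−0.26), high at 24 h and low afterwards. Its 5 other probe sets above the filter also lay below the control at 72 h, from −0.59 to −0.15. Ndufs3, a core subunit of the connecting module, read 683, 737, 605 and 634 (−0.10). Ndufs1, the largest iron-sulphur subunit, was the exception among the core, with 186, 245, 207 and 209 (0.15): it was lowest on the control array.

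Among supernumerary subunits of complex I, Ndufb6, a small membrane-arm subunit, read 669, 681, 577 and 489 (−0.43). Its other probe set differed by 0.00 at 72 h, so its value rests on 1 probe set. Ndufa3 stood furthest above the control at 72 h, with 1048, 1017, 841 and 1306 (0.31), after being below it at 48 h (−0.31). Its other probe set moved the same way, with −0.21 and 0.18. Ndufv3 was level, with 948, 945, 950 and 972 (0.03).

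A pair of genes was picked after their values were seen, since they are the extremes of complex I at the earlier times. Ndufa12 read 387, 569, 325 and 334, a difference of 0.52 at 24 h and −0.71 from 24 to 72 h. Ndufb2 read 414, 445, 269 and 337, with −0.57 at 48 h, but its other probe sets ranged from −0.12 to 0.11 there. Ndufa4, first assigned to complex I and now placed in complex IV, read 555, 596, 423 and 431 (−0.34). Its paralogue Ndufa4l2, which hypoxia induces, read 120, 86.1, 112 and 112 (−0.08) and was lowest at 24 h, where Ndufa4 was highest.

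Complex II is the only one encoded wholly in the nucleus, and its genes differed from the control in both directions. Sdha, the flavoprotein that oxidises succinate, read 483, 482, 466 and 515 (0.09 at 72 h). A second Sdha probe set above the filter read 257, 295, 290 and 376, a difference of 0.50, so both were above the control at 72 h but by different amounts. Sdhb, the iron-sulphur subunit, read 992, 1192, 1176 and 937 (−0.08) and was high at 24 h (0.26) and 48 h (0.24). The membrane anchors followed: Sdhc read 755, 715, 788 and 673 (−0.16). Sdhd read 600, 608, 669 and 583 (−0.04). On their brightest probe sets Sdhb, Sdhc and Sdhd were lowest at 72 h, with Sdhc furthest from the control there. A second Sdhc probe set above the filter read 396, 409, 396 and 396 (0.00). The second Sdhd one, which was dimmer, lay at −0.14 at 48 h and −0.10 at 72 h and was lowest at 48 h. The low at 72 h in Sdhc and Sdhd thus rests on 1 probe set each.

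In complex III 7 of 8 genes were lowest on the 72 h array. Uqcrq, a small subunit next to cytochrome b, read 855, 1135, 587 and 473. It was highest at 24 h and more than 2-fold lower at 72 h than there (−1.21), with −0.81 against the control, the lowest value of all subunit genes. This rests on 1 probe set. Its 3 other probe sets above the filter were dim and differed from the control by −0.18 to 0.03 at 72 h. Uqcrc1, a core protein of the matrix side, read 845, 670, 708 and 595 (−0.49), already low at 24 h (−0.32). Uqcr11, a small subunit, read 585, 567, 441 and 430 (−0.42), with the drop between 24 and 48 h.

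The rest of complex III lay nearer to the control. Uqcrfs1, the Rieske iron-sulphur protein that passes electrons on to cytochrome c1, read 474, 480, 432 and 430 (−0.13). Uqcrh, the hinge protein beside cytochrome c1, read 1020, 950, 950 and 934 (−0.12). Uqcrb, a subunit at the quinone site, read 1766, 2232, 1604 and 1912 (0.11) and was the sole complex III gene above the control at 72 h. Like Uqcrq it was highest at 24 h (0.33).

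In complex IV Cox5a, a subunit of the matrix side, read 1452, 1455, 969 and 1013. It was close to the control at 24 h and differed by −0.57 at 48 h and −0.51 at 72 h. Its other probe sets lay at 0.23 and 0.32 at 24 h, at −0.51 and −0.43 at 48 h and at −0.28 and −0.08 at 72 h. All of them were lowest at 48 h. The other end of complex IV was Cox6c, with 2147, 2583, 2386 and 2386 (0.15), which was lowest on the control array.

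Several complex IV subunits exist as isoforms for different tissues. Cox4i1, the common form, read 2223 on the control array and 1987 on each off array (−0.16). Cox4i2, the form found in lung, was dim, at 43.3, 45.6, 43.3 and 42.7. Cox6b1 read 2066, 2231, 1871 and 2066 (0.00), and the testis form Cox6b2 read 29.8, 21.7, 26.1 and 35.6 (0.13). Equal values across arrays, as for Cox4i1 and Cox6b1, occurred in 11 of the 79 genes, 9 of them past the filter, and how they arose was not tested.

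Cox7a2, the common form of that subunit, read 1842, 2021, 1639 and 1607 (−0.19), while its muscle form Cox7a1 stayed under the filter. Cox7a2l, a relative that joins complexes III and IV into supercomplexes, read 1074, 1140, 881 and 835 (−0.35), and its other probe sets lay lower still, at −0.58 and −0.50. Cox7b2 was under the filter, and Cox7b was not listed with a single symbol. Cox8a, the common form, read 1854, 2046, 1862 and 1697 (−0.12). Cox8b, the form of heart and skeletal muscle, was dim at 51.2, 36.9, 30.3 and 56.4 (0.09 at 72 h, −0.42 at 48 h). Cox8c, known from testis, read 298, 295, 305 and 279 (−0.08), and its other probe set lay at 0.12. Of the common forms, Cox4i1, Cox7a2 and Cox8a lay below the control at 72 h and Cox6b1 was equal to it on its brightest probe set and at −0.18 on its other (1293, 1423, 1159 and 1137).

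Promoters were read to show what the subunit genes share in sequence. RefSeq promoters of 300 bases, 250 before and 50 after the gene's start (GRCm38.p6), were given for 65 of the 79 genes. Each was searched on both strands for the palindromic NRF1 motif, whose 10 letters are the capitals in the Uqcrc1 promoter, for the letters of ETS factors such as GABP, CCGGAAG, and for those of the oestrogen-related receptor ESRRA, AAGGTCA. No motif contains another, and a match is a description of the letters and no site. For each motif the promoter shown is that of the gene with the lowest 72 h difference among those holding it. This choice used the 72 h values, and a link between a motif and the difference was not tested. Capitals mark the match on either strand, and the promoters lie at chr9:108936398-108936697 (plus strand), chr4:40279372-40279671 (minus strand) and chr6:39592315-39592614 (plus strand).
Uqcrc1, NRF1: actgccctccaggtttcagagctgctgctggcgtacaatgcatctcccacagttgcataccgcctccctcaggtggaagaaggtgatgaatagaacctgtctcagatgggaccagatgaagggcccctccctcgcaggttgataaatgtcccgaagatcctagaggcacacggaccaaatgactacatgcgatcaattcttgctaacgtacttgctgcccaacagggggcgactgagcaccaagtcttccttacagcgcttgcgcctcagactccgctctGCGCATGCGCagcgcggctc
Ndufb6, ETS: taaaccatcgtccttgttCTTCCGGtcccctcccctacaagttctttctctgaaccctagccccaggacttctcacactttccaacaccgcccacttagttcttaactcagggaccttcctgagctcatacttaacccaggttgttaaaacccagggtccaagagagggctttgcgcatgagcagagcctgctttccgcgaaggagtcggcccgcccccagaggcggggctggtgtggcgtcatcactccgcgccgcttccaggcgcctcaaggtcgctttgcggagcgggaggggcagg
Ndufb2, ESRRA: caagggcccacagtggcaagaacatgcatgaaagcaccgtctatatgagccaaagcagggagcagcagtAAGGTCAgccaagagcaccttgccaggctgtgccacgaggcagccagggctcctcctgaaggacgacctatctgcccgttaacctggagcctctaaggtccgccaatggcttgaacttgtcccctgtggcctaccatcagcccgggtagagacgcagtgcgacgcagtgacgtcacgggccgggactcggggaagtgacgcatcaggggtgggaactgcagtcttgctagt

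The NRF1 letters stood in 3 of the 65 promoters (4.62%), against 1.07% of the 27025 genes of the table. Among the 10709 genes of it that passed the array filter and are not subunit genes, the share was 2.00%. The 65 were not filtered and include Cox7a1, Cox7b2, Cox7c and Ndufb4. The subunit genes with the NRF1 letters were Uqcrc1, Atp5g2 and Atp5k. The ETS letters stood in 16 (24.6%), against 9.93% and 17.6%, and the ESRRA letters in 8 (12.3%), against 5.38% and 4.19%. The 72 h medians of genes with and without each motif were as follows. Genes with the NRF1 letters had −0.09 (2 of 3 below) and those without −0.16 (48 of 58). Genes with the ETS letters had a median of −0.12 (14 of 16 below) and those without −0.16 (36 of 45). Genes with the ESRRA letters had −0.18 (6 of 7 that passed the filter) and those without −0.15 (44 of 54).

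Genes that serve the respiratory chain were set beside it. Of all genes 43.7% were below the control at 72 h and 45.5% at 48 h. Of the bright genes 51.3% and 54.0% were. The mitochondrial ribosome makes the subunits encoded in mitochondrial DNA. Of its proteins, 31 of 39 (79.5%) were below the control at 72 h and 28 (71.8%) at 48 h. Their medians were −0.15 and −0.12. The furthest were Mrps18b (212, 196, 105 and 120, −0.68), Mrps10 (152, 188, 99.1 and 89.3, −0.60), Mrpl12 (244, 197, 123 and 152, −0.58) and Mrpl20 (483, 481, 371 and 335, −0.49). Most genes of this list thus lay below the control on both late arrays, as the subunit genes did.

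In the citric acid cycle and pyruvate dehydrogenase list 12 of 20 were below at 72 h (60%, against 43.7% of all genes). The median was −0.11. Mdh2, mitochondrial malate dehydrogenase, read 1319, 1311, 766 and 843 (−0.63), and Dlst, a subunit of the 2-oxoglutarate dehydrogenase complex, read 506, 556, 351 and 363 (−0.45). Pdk2, a kinase that shuts down pyruvate dehydrogenase, read 95.2, 75.8, 158 and 160 (0.59). Suclg2, a subunit of the GTP-forming succinyl-CoA ligase, read 134, 168, 165 and 186 (0.40). The first pair was low and the second high on both late arrays.

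The outer membrane channels and inner membrane carriers had a median of −0.17 with 9 of 13 below (69.2%, against 43.7% of all genes). Vdac2, an outer membrane channel, read 2665, 2483, 1638 and 1109 (−1.24), further below the control than any subunit gene. Vdac1, its relative, read 2229, 2379, 1658 and 1658 (−0.42). Slc25a5, which exchanges ADP for ATP, read 1562, 1928, 1212 and 1056 (−0.55). Mpc1, part of the pyruvate carrier, read 178, 241, 275 and 241 (0.38).

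Assembly factors were nearer to the control. Of those of complex I, 8 of 14 were below (57.1%, against 43.7% of all genes), with a median of −0.06. Nubpl lay at −0.45, Ndufaf2 at −0.38, Ndufaf4 at −0.28 and Ndufaf8 at 0.26. Of those of complexes II to V, 14 of 29 were below (48.3%, against 43.7%), with a median of 0.00. Uqcc2 lay at −0.52, Coa3 at −0.36, Sco2 at −0.34 and Coa7 at −0.32. In the cytochrome c and coenzyme Q list 6 of 13 were below (46.2%, against 43.7%), with a median of 0.11. Cycs, cytochrome c itself, read 734, 987, 509 and 453 (−0.66), with the same order of arrays as Uqcrq. Coq10b lay at −0.46, Coq9 at 0.38 and Coq6 at 0.31.

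A few subunits have names outside the pattern. At 72 h 4 of the 5 measured were below the control (80%, against 43.7% of all genes). Ndufab1, the acyl carrier protein in complex I, lay at −0.39, Atpif1, an inhibitor of the ATP synthase, at −0.36, Cox6a1 at −0.12 and the muscle form Cox6a2 at 0.19 (68.4, 67.9, 68.4 and 82.7). Of the subunits encoded in mitochondrial DNA the array measured ND5 alone, a proton-pumping subunit of complex I. It read 2561, 3437, 3067 and 4499 (0.81), higher than the control on every off array, while its nuclear partners were mostly lower at 48 and 72 h.

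Of the regulators of mitochondrial genes 6 of 18 were below the control at 72 h (33.3%, against 43.7% of all genes) and 7 above. Their median was 0.00. Ppargc1a was under the filter, from 13.8 to 14.0, as were Esrrg, Tfb1m and Ppara. Mitf, which is also a marker of pigment cells, read 50.3, 56.5, 93.1 and 115 (0.84), higher at each later time. Myc, which raises genes of mitochondrial and ribosome biogenesis, read 111, 146, 70.6 and 54.1 (−0.73), highest at 24 h and lowest at 72 h. Whether Myc bears on the subunit genes was not tested. Ppard lay at −0.39 and Polrmt, the mitochondrial RNA polymerase, at −0.37.

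**Figure D5:**
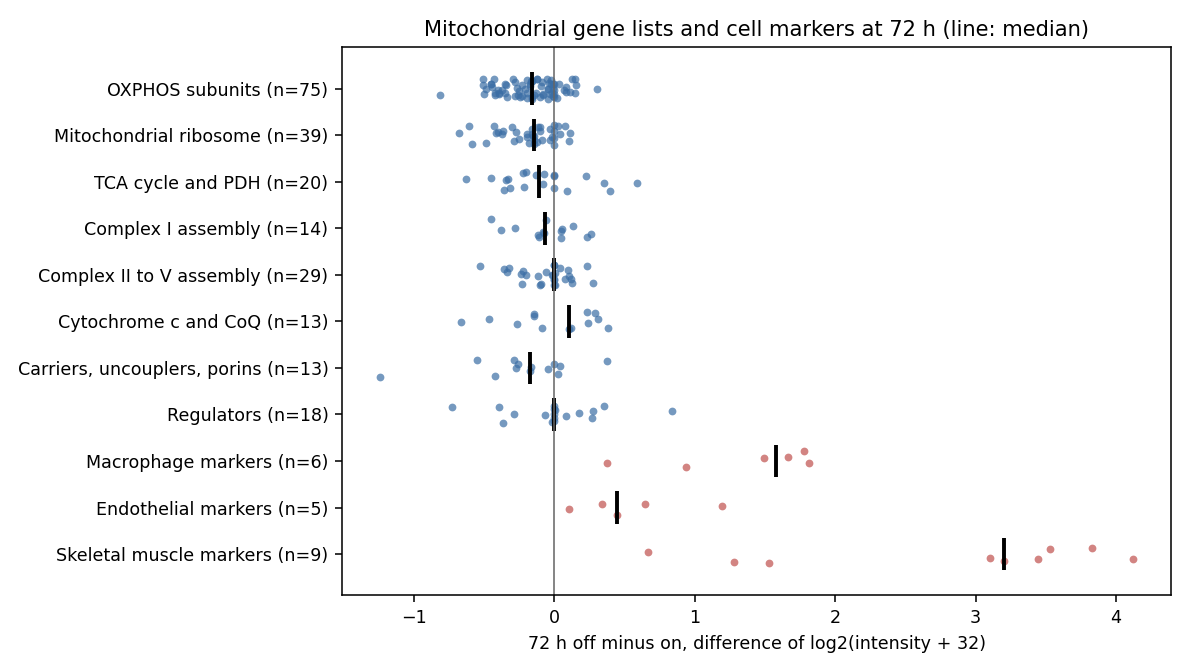
Difference of log2(intensity + 32) between 72 h off and on doxycycline (x axis) for the genes of each list that passed the filter (points; rows, with the number of genes), with the median as a black line. The filter takes the mean over all arrays, the 72 h array included, so it favours markers that are high there. The subunit genes (median −0.16) and the mitochondrial ribosome (−0.15) lie left of 0, while macrophage (1.58), endothelial (0.45) and skeletal muscle markers (3.20) lie right of it.

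The arrays also differed in markers of other cells. Skeletal muscle markers were higher on the 72 h array for all 9 of 10 that passed the filter, with a median of 3.20, and their summed intensity was 467, 777, 420 and 5534 on the control, 24, 48 and 72 h arrays. Macrophage markers were higher for all 6 of 6 at 72 h, with a median of 1.58 and sums of 2984, 5463, 4810 and 9865. Endothelial markers were higher for all 5 of 5, with a median of 0.45 and sums of 450, 389, 409 and 712. Of 4 adipocyte markers measured, Adipoq (2.00) and Fabp4 (2.43) were higher at 72 h and the others under the filter. Keratinocyte markers had sums from 161 to 173, and those of slow or cardiac muscle from 207 to 268 with the lowest at 72 h. These sums are over all markers measured. The filter uses the mean over all 4 arrays, so a marker dim elsewhere can pass through the 72 h array alone. Of all 10 skeletal muscle markers measured, 9 were highest on the 72 h array. No defining marker was listed at 0. At 24 and 48 h the medians were 0.02 and −0.11 for the skeletal muscle markers and 0.50 and 0.48 for those of macrophages. The part of these cells in the values of the subunit genes was not tested.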

How the data were processed

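Trizol-extracted total RNA, 10 ug per tumour, was turned into biotinylated cRNA for an Affymetrix mouse array, per the labels' protocols. The authors deposited 1 linear intensity for each probe set and array. MAS5 and RMA appear in the submitters' processing notes without version or role, so the scaling behind the values is unknown here. Of 45037 probe sets, 34945 had a single symbol, 932 several and 9160 none in the platform annotation. The several-symbol ones include 9 that name a subunit gene, such as Ndufa11, and were not used. The table was used without further normalization. Differences of log2(intensity + 32) were taken with Python 3.11.15 and pandas 2.3.3, and the script was checked on simulated data.

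The number of arrays, 1 per group, limits the precision, so counts and medians are set beside those of all 13522 genes that passed the filter. The members and lists were chosen with earlier results of these data known. Genes named were the isoform groups, the 3 highest and 3 lowest at 72 h in each complex, the core of complex I, complex II, and up to 4 per other list by size at 72 h. Alternatives covered normalization, pseudocount, filter and choice of probe sets.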

Additional observations from a re-analysis of the deposited data

How the results depend on the processing

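No paired analysis was possible because each group has 1 array. Over 446 values of the counts and medians under other settings, 416 stayed close (a median within 0.1, a count within 1.5 times) and 30 did not. Under every setting run the subunit genes' median was below 0 at 48 h (−0.17 to −0.09) and at 72 h (−0.17 to −0.11). From 53 to 64 genes were below the control at 72 h, but the number of genes counted changes with the filter. With quantile normalization it was 53 of 75 (70.7%, against 57.7% of all genes).

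With quantile normalization the median from 24 to 72 h was −0.092 and from 24 to 48 h −0.074, with 3 genes lower by 0.5 in each. None was then higher by 0.5 at 24 h (0 genes), 1 was lower by 0.5 at 48 h, and 27 were highest on the 24 h array. The complex medians from 24 to 72 h were 0.046 for II, −0.084 for III and −0.11 for V, and V was at −0.12 at 48 h. With a pseudocount of 8, 6 genes at 48 h and 5 at 72 h were lower by 0.5, and 2 were higher from 24 to 72 h. With the larger pseudocount tried, 1 was lower at 48 h, 1 at 72 h, 0 were higher at 24 h and 1 from 48 to 72 h. With filters at the 60th, 80th and 90th percentile 1 gene was higher from 48 to 72 h. With the mean over a gene's probe sets 0 were lower by 0.5 at 48 h and 0 at 72 h, 2 from 24 to 72 h and 3 from 24 to 48 h, 0 were higher at 24 h and 1 from 48 to 72 h. Without probe sets that can match several transcripts 0 were higher at 24 h, 4 lower from 24 to 48 h and 1 higher from 48 to 72 h. The complex I assembly median turned to 0.26 with the 80th and also with the 90th percentile filter, and that of cytochrome c and coenzyme Q to −0.26 and −0.66, where few genes are left. The filter at the 90th percentile and leaving out tied genes were chosen after seeing the data. Counts past 0.5 thus depend on the setting, and a gene near that size should not be read as above or below it.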
